A study of Homo sapiens with 6 samples.

Results

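Nuclear hormone receptors and the coregulators that work with them form a set of 46 genes here, 39 receptors and 7 coregulators. They were found by symbol among the 58735 gene identifiers of the deposited tables, and all 46 were present. The cells were A549, an established human non-small cell lung cancer line labelled as wild type and of lung tissue. The 3 untreated libraries and the 3 libraries from cells given B35 at 2 µM were all taken at 72 h. The series names B35 an LSD1 inhibitor. LSD1 (gene KDM1A) removes methyl groups from histones, and the comparison asks what B35 does to RNA levels. No solvent is labelled for the untreated cells, and nothing in the labels tells whether replicate libraries were grown as separate cultures. The p-values therefore cover the spread among these 6 libraries, which may be technical. In such bulk RNA, fewer cells of a type and less RNA per cell cannot be told apart.

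Nuclear receptors are transcription factors that bind DNA through paired zinc fingers and, in many cases, bind a small fat-soluble ligand such as a steroid, a retinoid, vitamin D, thyroid hormone or a fatty acid. Ligand binding exchanges corepressors, which recruit histone deacetylases, for coactivators, which recruit acetyltransferases and the Mediator complex. LSD1 itself is known as a coregulator of the androgen and oestrogen receptors, and it has been found with the orphan receptors NR2C1, NR2C2 and NR2E1.

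Library totals ran from 17141478 to 18530670 counts. B35 replicate 1 stood apart from the other B35 libraries on the second principal component. Values without it are given for some results, not for every gene in which it was the lowest or highest library. Of 5 epithelial markers, KRT8 fell from 1663 ± 34.9 to 1117 ± 158 CPM (counts scaled to a common library size, with TMM factors) and EPCAM rose from 3.36 ± 0.255 to 7.21 ± 0.197 CPM. KRT18, at 526 ± 26.2 and 456 ± 30.6 CPM, and CDH1, at 1.34 ± 0.219 and 0.65 ± 0.48 CPM, did not pass, and KRT19 had 2 to 8 counts per library. The 5 markers of alveolar type II cells summed to under 1 CPM in every library. Sums were 2.14 to 3.33 CPM for 5 leukocyte markers, of which CD3E had no count, and 5.85 to 9.44 CPM for 3 endothelial markers. Both sums overlapped between groups. The 5 fibroblast markers summed to 27.1, 27.3 and 27.2 CPM in untreated and 19.8, 21.8 and 22.7 CPM in B35 libraries, without overlap. Of the leukocyte, endothelial and fibroblast markers, 2 each were tested and none passed. The part of these marker shifts in the results below was not tested. Of 14773 genes with enough counts to test, 2276 passed at an adjusted p below 0.05 in edgeR's quasi-likelihood test, 15.4% in all, 8.82% higher and 6.59% lower with B35. Without untreated replicates 1, 2 and 3 in turn, 1079, 1286 and 881 genes passed. With B35 replicate 1 left out, 3342 genes passed, 1822 higher and 1520 lower.

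Of the members, 4 receptors and 1 coactivator rose with B35, and no member fell. PPARA, the fatty acid sensor that switches on fat oxidation, rose 1.52-fold, and HNF4A, a regulator of liver and gut genes, rose 1.5-fold. RORA, which activates clock genes and binds DNA as a monomer, rose 2.09-fold. NR6A1, an orphan repressor known from germ cells and early embryos, rose 1.77-fold. NCOA3, a p160 coactivator often amplified in breast cancer, rose 1.43-fold. Enough counts to test were found for 31 of the 46 members, 24 receptors and 7 coregulators, of which 30 met the minimum in both groups and ESR1 only through the B35 libraries. The 5 that passed are 16.1% of these 31, beside 15.4% of all genes tested. All 5 were higher, where 8.82% of all genes tested passed as higher and 6.59% as lower. These shares were not compared by a test, since the members were chosen with results of these data known. The median log2 fold change was 0.08 over the 31 and 0.0067 over all genes tested.

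RNA levels per gene length, in the FPKM values that the authors deposited, put 18 receptors and 6 coregulators at a mean of 1 or more. NR2F6, an orphan repressor, was the most abundant at 54.8 ± 3.77 FPKM in untreated cells (SD, n = 3 here and below). ESRRA, which drives mitochondrial genes together with the PGC-1 coactivators, followed at 27.4 ± 2.38 FPKM. RARG, a retinoic acid receptor of epithelia, stood at 22.3 ± 0.846 FPKM. RXRB and RXRA, the shared partners of many receptors, were at 17.6 ± 1.29 and 17.4 ± 1.58 FPKM and did not differ beyond their spread. Next came NR2F2 at 14.1 ± 0.857 and the glucocorticoid receptor NR3C1 at 11.1 ± 1.28 FPKM. The corepressor NCOR1, at 10.0 ± 0.742 FPKM, led the coregulators. The receptors that rose lay low in this order, from PPARA at 2.34 ± 0.129 FPKM down to RORA at 0.152 ± 0.0133 FPKM in untreated cells. Median FPKM over all 6 libraries was 1.62 for the 5 that rose and 5.46 for the 26 tested members that did not pass.

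**Figure D1:**
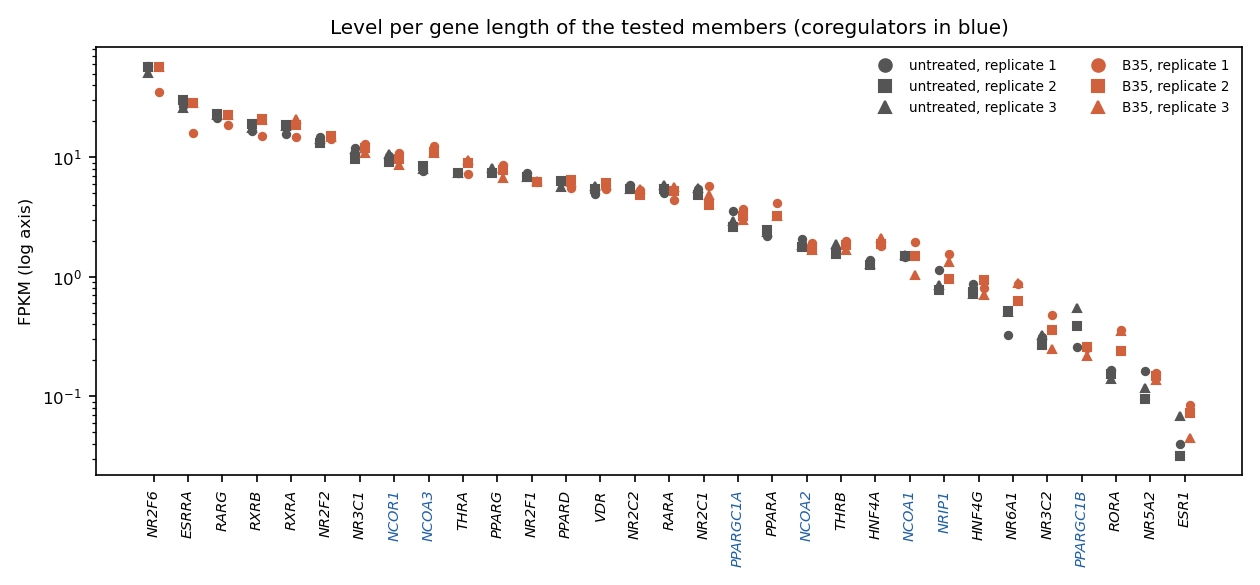
FPKM (log axis) of the 31 tested members in each of the 6 libraries, ordered by mean, with untreated libraries in grey and B35 libraries in orange. NR2F6 leads at 35.2 to 57.4 FPKM and ESR1 is lowest, at 0.0318 to 0.0844 FPKM. B35 replicate 1 lies below the other libraries for NR2F6, ESRRA, RARG, RXRB and RXRA.

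The remaining 15 receptors had too few counts to test. No read was counted in any library for PGR, ESRRB, RXRG, NR2E1, NR5A1 and NR0B1. A count of 0 allows up to 3 counts, which is 0.158 to 0.178 CPM in these libraries, a limit that covers counting error only. NR0B2, which lacks a DNA-binding domain and represses other receptors, had 3 counts in all, and NR1H4, the bile acid receptor, had 6. The drug-sensing receptors NR1I2 and NR1I3 had 8 and 27 counts over the 6 libraries. The other untested receptors were ESR2, ESRRG, RARB, RORB and NR2E3, and no untested receptor exceeded 16 counts in a library.

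PPARA (ENSG00000186951, chromosome 22, 46150521 to 46243756, plus strand, hg38) was counted at 29.3, 32.7 and 31.4 CPM in untreated cells and at 55.5, 43.0 and 43.0 CPM with B35. Every B35 library lay above every untreated one, with replicate 1 the highest. On the log2 scale PPARA was higher by 0.60 ± 0.12 (SE), with an edgeR adjusted p of 0.00899. It kept its call in all 15 alternative fits, with the adjusted p at 0.0491 or less. The other fatty acid receptors of the family gave overlapping groups. PPARD, expressed in many tissues, was at 26.9 ± 1.76 and 27.2 ± 1.99 CPM, and PPARG, the receptor of fat cell differentiation, at 35.1 ± 1.82 and 35.5 ± 4.14 CPM. In summed FPKM of the 3 PPAR genes, the share of PPARA was 13.9%, 15.2% and 14.7% in untreated libraries and 22.7%, 18.5% and 19.8% with B35.

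RORA (ENSG00000069667, chromosome 15, 60488284 to 61229319, minus strand) was at 2.84, 2.60 and 2.38 CPM without and 6.22, 4.05 and 6.11 CPM with B35. The groups did not overlap, which was so for 18.8% of all genes tested in the higher direction and 36.3% in either. Its log2 fold change of 1.06 ± 0.23 (SE, edgeR adjusted p = 0.0109) was the largest of the 31 members. It rests on 40 to 116 counts per library, and the adjusted p was 0.056 without untreated replicate 3. RORA shares exon positions with RORA-AS1 and other noncoding genes on the opposite strand, and with RF02271 on its own strand. No source used here says that reads were assigned by strand.

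HNF4A (ENSG00000101076, chromosome 20, 44355700 to 44434596, plus strand) was at 10.1, 9.14 and 9.40 CPM in untreated and 13.5, 13.8 and 15.8 CPM in B35 libraries. HNF4A was higher by 0.59 ± 0.13 on the log2 scale (SE), at an edgeR adjusted p of 0.014, which went to 0.0602 and 0.0736 without untreated replicates 2 and 3. Its close relative HNF4G did not pass, at 3.74 ± 0.387 and 3.96 ± 0.565 CPM. NR6A1 (ENSG00000148200, chromosome 9, 124517275 to 124771310, minus strand) was at 2.34, 3.71 and 3.63 CPM without and 6.27, 4.44 and 6.43 CPM with B35. The groups were separate for both genes. NR6A1 was higher by 0.83 ± 0.24 on the log2 scale (SE), at an edgeR adjusted p of 0.0388. This was the least firm of the calls, since leaving out untreated replicate 1, 2 or 3 gave an adjusted p of 0.141, 0.0607 or 0.0862. Leaving out B35 replicate 1 or 3 gave 0.0563 or 0.107. Thus 2 and 1 receptors rose without untreated replicates 2 and 3, against 4 with all libraries.

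NCOA3 (ENSG00000124151, chromosome 20, 47501902 to 47656877, plus strand), which brings acetyltransferases to receptors bound to ligand, was at 64.7, 71.9 and 67.6 CPM in untreated cells. With B35 it was at 105, 94.2 and 92.9 CPM, above the untreated range in each library. NCOA3 was higher by 0.52 ± 0.094 on the log2 scale (SE), at an edgeR adjusted p of 0.00534, and passed in all 15 alternative fits. NCOA3 shares exon positions with SULF2, which lies on the opposite strand. Of the other p160 coactivators, NCOA1 was at 12.9 ± 0.159 and 13.02 ± 4.03 CPM and NCOA2 at 18.98 ± 1.46 and 17.9 ± 1.32 CPM. NCOA3 made up 68.5%, 72.3% and 70.5% of the summed FPKM of NCOA1, NCOA2 and NCOA3 in untreated libraries, and 76.1%, 77.6% and 80.1% with B35.

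**Figure D2:**
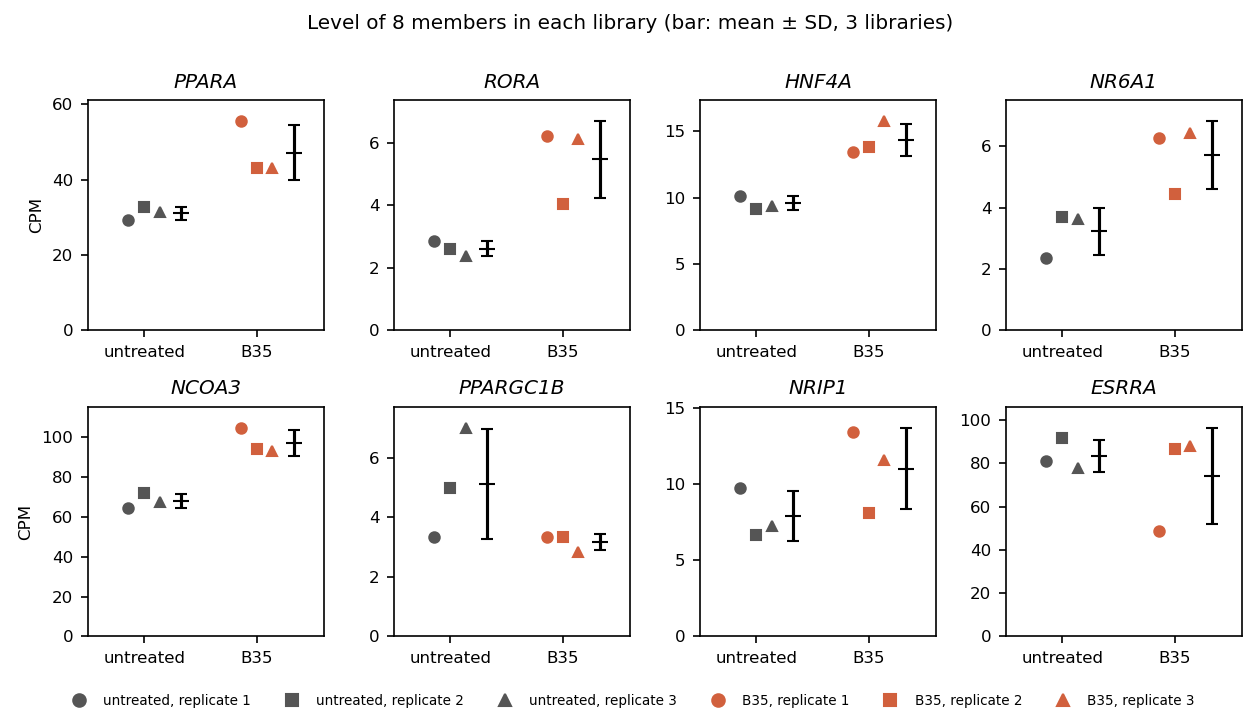
CPM of 8 members in each library, with the mean ± SD of 3 libraries beside the points. PPARA, RORA, HNF4A, NR6A1 and NCOA3 passed the test and lie higher in all 3 B35 libraries, while PPARGC1B, NRIP1 and ESRRA did not pass.

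**Figure D3:**
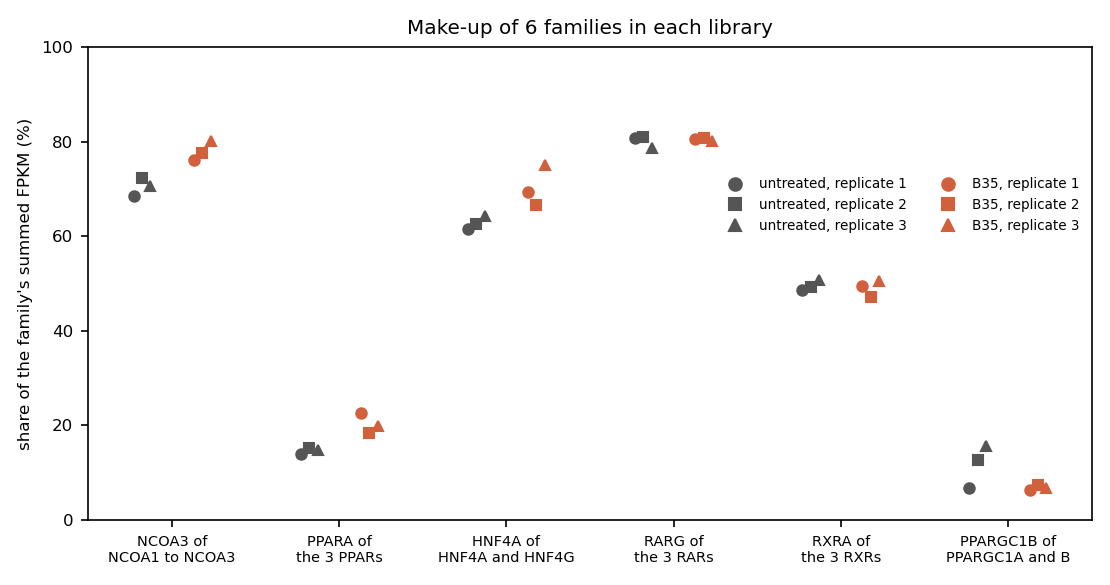
Share of a gene in the summed FPKM of its family (percent), per library. The shares of NCOA3, PPARA and HNF4A are higher in every B35 library than in any untreated one, and those of RARG, RXRA and PPARGC1B overlap between groups.

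Promoter windows of the 5 members that rose are printed to show what lies at their annotated starts. They are RefSeq windows (GRCh38.p14) from 250 bases before to 50 bases after an annotated start, and 41 of the 46 members have at least 1. Capitals mark matches on either strand to 3 motifs: the GC box GGGCGG, the CCAAT box and the cAMP response element TGACGTCA. The other motifs searched were AGGTCA, the core hexamer of many nuclear receptor sites, and AGAACA, that of glucocorticoid receptor sites.
PPARA, chr22:46150276-46150575, plus strand: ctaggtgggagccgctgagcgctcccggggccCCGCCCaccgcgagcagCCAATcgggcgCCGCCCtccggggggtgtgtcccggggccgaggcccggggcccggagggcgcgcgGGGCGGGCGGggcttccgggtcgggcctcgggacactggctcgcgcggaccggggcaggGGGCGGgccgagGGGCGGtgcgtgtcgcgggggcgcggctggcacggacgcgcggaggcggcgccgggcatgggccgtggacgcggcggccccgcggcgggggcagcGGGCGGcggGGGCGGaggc
RORA, chr15:60627481-60627780, minus strand: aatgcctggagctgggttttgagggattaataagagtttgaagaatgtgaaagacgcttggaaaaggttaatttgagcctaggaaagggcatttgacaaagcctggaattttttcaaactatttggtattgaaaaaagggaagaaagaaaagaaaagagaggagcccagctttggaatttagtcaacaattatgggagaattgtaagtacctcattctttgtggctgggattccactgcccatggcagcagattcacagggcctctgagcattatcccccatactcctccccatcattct
HNF4A upstream start, chr20:44355449-44355748, plus strand: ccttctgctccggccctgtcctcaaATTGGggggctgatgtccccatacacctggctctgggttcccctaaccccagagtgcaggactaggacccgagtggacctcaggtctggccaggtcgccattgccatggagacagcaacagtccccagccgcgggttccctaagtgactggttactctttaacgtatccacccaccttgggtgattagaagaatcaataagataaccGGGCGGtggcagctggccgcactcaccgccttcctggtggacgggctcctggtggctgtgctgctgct
HNF4A downstream start, chr20:44400989-44401288, plus strand: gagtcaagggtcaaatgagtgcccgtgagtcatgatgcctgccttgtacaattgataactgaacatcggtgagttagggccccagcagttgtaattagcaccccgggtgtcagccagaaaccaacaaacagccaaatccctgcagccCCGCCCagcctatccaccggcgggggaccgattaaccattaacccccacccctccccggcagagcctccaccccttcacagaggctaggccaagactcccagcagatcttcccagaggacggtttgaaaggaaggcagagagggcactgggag
NR6A1, chr9:124771262-124771561, minus strand: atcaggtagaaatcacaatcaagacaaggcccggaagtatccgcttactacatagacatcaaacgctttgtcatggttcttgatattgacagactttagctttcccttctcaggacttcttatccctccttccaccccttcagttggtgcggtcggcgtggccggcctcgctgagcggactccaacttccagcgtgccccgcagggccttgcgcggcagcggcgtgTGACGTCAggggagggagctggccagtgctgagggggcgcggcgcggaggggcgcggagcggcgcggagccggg
NCOA3, chr20:47501637-47501936, plus strand: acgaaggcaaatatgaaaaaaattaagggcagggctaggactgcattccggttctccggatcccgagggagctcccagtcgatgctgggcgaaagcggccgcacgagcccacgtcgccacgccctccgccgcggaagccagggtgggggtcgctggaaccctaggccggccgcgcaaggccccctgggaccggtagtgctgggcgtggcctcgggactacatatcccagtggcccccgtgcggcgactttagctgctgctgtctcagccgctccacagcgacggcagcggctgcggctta

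None of the 7 windows of these genes, a second PPARA window included, holds AGGTCA or AGAACA, which occur in 13.8% and 14.8% of all 35116 windows. The PPARA window printed is 85.7% G and C and holds 8 GC boxes, some overlapping, a motif found in 45.0% of all windows. At the other end, the RORA window is 42.0% G and C and holds none of the 5 motifs. Its start lies 601789 bases inside the gene, downstream of the 5′ end of the longest GENCODE model. The NR6A1 window holds the 8 letters TGACGTCA from 24 bases before the start, which 1.85% of all windows share. HNF4A has starts 45540 bases apart, its known P2 (upstream) and P1 (downstream) promoters, and counts per gene do not separate their transcripts. These are matches of letters in short windows and say nothing of binding.

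Among the steroid receptors none passed. NR3C1, which binds cortisol, was at 111, 88.9 and 107 CPM in untreated cells and 119, 110 and 101 CPM with B35, overlapping groups with a log2 fold change of 0.10 ± 0.11 (SE, edgeR adjusted p = 0.573). The mineralocorticoid receptor NR3C2 was at 2.06, 1.77 and 2.14 CPM in untreated and 3.22, 2.39 and 1.69 CPM in B35 libraries, again with overlap. The oestrogen receptor ESR1 had only 8 to 21 counts per library, and its log2 fold change of 0.53 ± 0.42 (SE, edgeR adjusted p = 0.428) was too imprecise to read.

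ESRRA was at 80.8, 91.8 and 77.7 CPM in untreated libraries and at 48.6, 86.4 and 87.8 CPM with B35. Only B35 replicate 1 was low. ESRRA did not pass, at log2 −0.17 ± 0.19 (SE) and an edgeR adjusted p of 0.596, and its value turned to 0.06 without that library. NR2F6 had the same pattern, with 154, 152 and 135 CPM against 95.6, 153 and 155 CPM. Its log2 fold change was −0.13 with all libraries and 0.07 without B35 replicate 1, and neither value passed. With trends on GC content and exon length removed, NR2F6 passed as lower (log2 −0.23, edgeR adjusted p = 0.0454). The transcripts of ESRRA and NR2F6 are 63.2% and 71.1% G and C, and the part of base composition in the values of B35 replicate 1 was not tested gene by gene. ESRRA also shares exon positions with TRMT112.

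RXRA was at 173, 205 and 201 CPM in untreated and 165, 209 and 237 CPM in B35 libraries, and RXRB at 64.7, 74.9 and 68.8 against 59.5, 83.0 and 81.9 CPM. In both, B35 replicate 1 was the lowest library, and B35 replicates 2 and 3 lay above every untreated library. These retinoid X receptors did not pass, with log2 fold changes of 0.08 ± 0.13 and 0.11 ± 0.13. Over the 15 alternative fits these values ranged from −0.047 to 0.205 for RXRA and from 0.020 to 0.246 for RXRB, and none passed. Their ratio was steady, RXRA making up 47.1% to 50.8% of their summed FPKM in the 6 libraries. Of their partners, the retinoic acid receptors RARA and RARG were at log2 −0.09 ± 0.13 and −0.05 ± 0.10. RARG was at 110, 119 and 116 CPM in untreated and 97.0, 117 and 119 CPM in B35 libraries, only B35 replicate 1 being low. The vitamin D receptor VDR was at log2 0.12 ± 0.11 and THRB, a thyroid hormone receptor, at 0.13 ± 0.12, with THRB-AS1 on its opposite strand. THRA, the other thyroid hormone receptor, was at 51.7, 52.0 and 51.2 CPM in untreated and 50.9, 62.1 and 67.1 CPM in B35 libraries. It did not pass with all libraries (log2 0.22 ± 0.11 SE, edgeR adjusted p = 0.216) but did without B35 replicate 1 (log2 0.32, edgeR adjusted p = 0.0181). THRA overlaps exons of NR1D1 on the opposite strand, a gene that rose 2.05-fold, and reads of the pair cannot be told apart without strand.

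The orphan receptors other than RORA, HNF4A and NR6A1 did not pass. NR2F1 was lower in each B35 library, at 31.8, 29.7 and 29.3 against 27.1, 26.7 and 27.6 CPM, but the difference did not pass (log2 −0.16 ± 0.10 SE, edgeR adjusted p = 0.316). NR2F2, the other COUP factor, was at 96.5, 85.5 and 91.5 CPM in untreated and 92.4, 98.4 and 97.2 CPM in B35 libraries. NR2C1 and NR2C2 were at log2 −0.10 ± 0.13 and −0.07 ± 0.095. NR5A2, a regulator of bile acid and steroid genes, had 13 to 22 counts per library and did not pass. Of the 20 tested receptors that did not pass, log2 fold changes ran from −0.17 to 0.53, and the smallest adjusted p was that of THRA.

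Among the coregulators, the PGC-1 pair differed in level. PPARGC1A, a coactivator induced by cold, fasting and exercise in other tissues, was at 38.7, 28.7 and 32.0 CPM in untreated and 41.0, 35 and 33.3 CPM in B35 libraries. PPARGC1B was at 3.35, 4.98 and 7.02 CPM in untreated and 3.33, 3.33 and 2.85 CPM with B35. The untreated libraries were spread widely, and the lowest lay just above the highest B35 library. PPARGC1B did not pass, at a log2 fold change of −0.69 ± 0.26 (SE, edgeR adjusted p = 0.105), though it passed without untreated replicate 1 (log2 −0.92, edgeR adjusted p = 0.0466), with no filter on low counts (0.0281) and with GC and length trends removed (0.0451). The share of PPARGC1B in the summed FPKM of both genes was 6.79%, 12.8% and 15.6% in untreated and 6.42%, 7.42% and 6.72% in B35 libraries.

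The corepressor NRIP1, which is itself a target of the oestrogen and retinoic acid receptors, was at 9.76, 6.64 and 7.26 CPM in untreated and 13.4, 8.10 and 11.5 CPM in B35 libraries. The groups overlapped, and the log2 fold change of 0.48 ± 0.21 did not pass (SE, edgeR adjusted p = 0.148). It passed with GC and length trends removed (edgeR adjusted p = 0.0474). NCOR1, the platform for the deacetylase HDAC3, was at 159, 142 and 163 CPM in untreated and 169, 149 and 134 CPM in B35 libraries, overlapping groups.

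Receptors and coregulators were then set side by side. Of 24 tested receptors, 4 rose (16.7%), and of 7 coregulators, 1 rose (14.3%), beside 8.82% of all genes tested. Their median log2 fold changes were 0.09 and 0.0099. The summed FPKM of the 39 receptors was 221, 226 and 218 in untreated libraries and 186, 234 and 235 with B35. The groups overlapped, with B35 replicate 1 lowest. For the 7 coregulators the sums were 26.4, 24.7 and 26.3 in untreated and 32.5, 28.4 and 26.6 in B35 libraries, groups that did not overlap. Without NCOA3 the sums were 18.7, 16.2 and 18.3 in untreated and 20.2, 17.2 and 15.8 in B35 libraries, which overlapped, with means of 17.7 in both groups. The difference between receptors and coregulators was not tested, since the members were chosen with results of these data known.

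**Figure D4:**
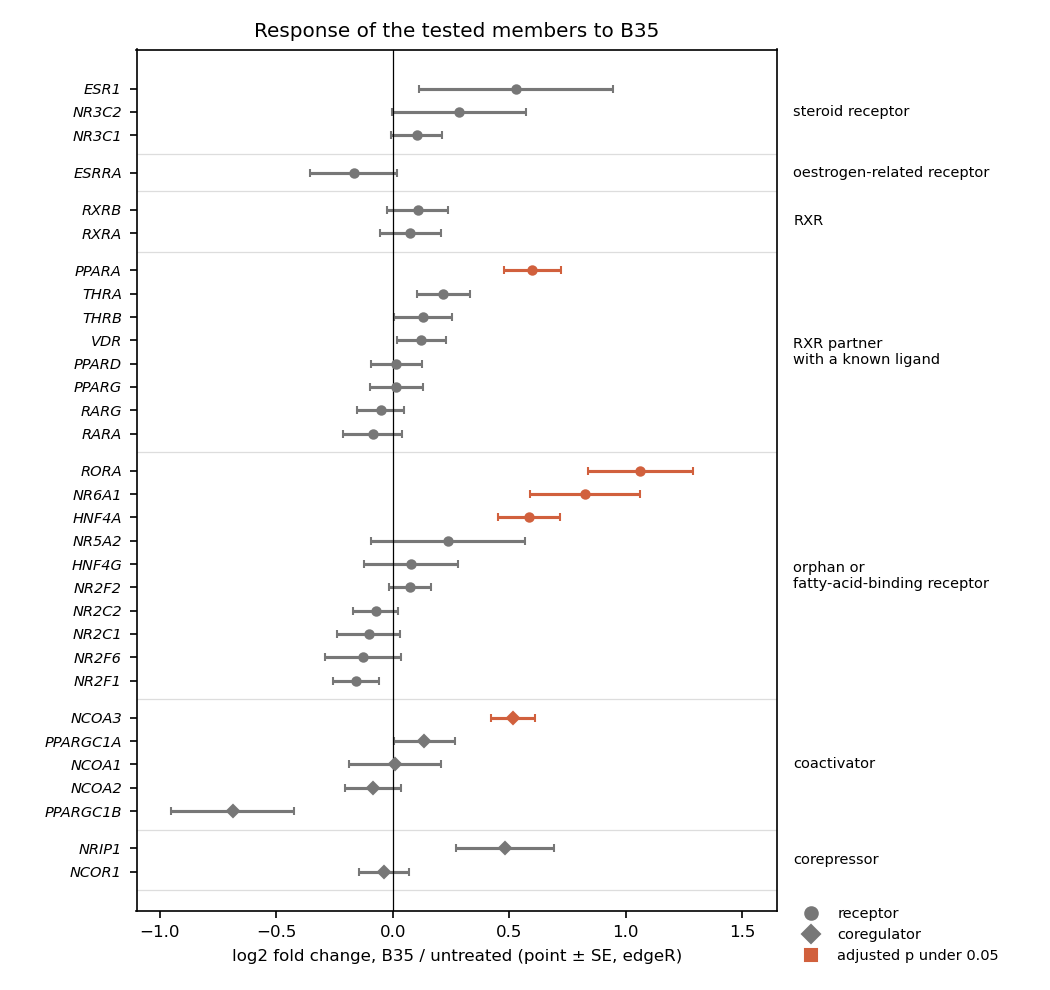
Log2 fold change of B35 over untreated (point, with SE) for the 31 tested members, grouped by class, with receptors as circles and coregulators as diamonds. The 5 members in orange passed the test, from NCOA3 at 0.52 to RORA at 1.06, and PPARGC1B has the lowest value, −0.69.

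Other genes of the receptor system were read from lists that were chosen with earlier results of these data known. The shares within these lists, here and below, are therefore descriptive, and no list was tested as a set. Of 8 further nuclear receptors, 2 rose and 2 fell, beside 8.82% higher and 6.59% lower of all genes tested. NR1D1, which represses the clock genes that ROR proteins activate, rose 2.05-fold (edgeR adjusted p = 0.00183). NR4A3, an immediate early orphan receptor, was 2.55-fold lower. NR4A1, of the same subfamily, was 1.51-fold lower. Of these 8 receptors, 1 rose when untreated replicate 2 or 3 was left out. Of 25 further coregulators, 1 rose and 2 fell, or 12% in all, beside 15.4% of all genes tested. PNRC1 was 1.38-fold higher, and NCOA5 and RBM14 were 1.57-fold and 1.51-fold lower. PNRC1 did not pass when untreated replicate 2 or 3 or B35 replicate 2 was left out, with edgeR adjusted p-values of 0.0661, 0.0972 and 0.0553. Without B35 replicate 1, 2 of these coregulators rose.

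Genes of retinoid handling and retinoic acid response rose in 5 of 10 tested members of a list of 16, and none fell, beside 8.82% higher and 6.59% lower of all genes tested. The other 5 did not pass, among them CRABP2 at log2 −0.14, the only value below 0. The median log2 fold change was 0.52, beside 0.0067 over all genes tested. DHRS3, a retinal reductase induced by retinoic acid, rose from 14.2, 15.3 and 13.6 to 35.9, 34.9 and 39.8 CPM, or 2.57-fold (edgeR adjusted p = 8.58e-05). STRA6, the retinol uptake receptor, rose 2.30-fold, and TGM2, a transglutaminase, 1.71-fold. CYP26B1, which breaks down retinoic acid, and ALDH1A3, which makes it, rose 1.54-fold and 1.44-fold. STRA6 shares exon positions with CCDC33 and TGM2 with RPRD1B. The receptors RARA and RARG did not pass, as given above, and CYP26A1 had 4 counts in all.

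Listed targets of the ERR receptors and PGC-1 fell in 7 of 15 tested members, beside 6.59% of all genes tested, and none passed as higher. The median log2 fold change was −0.34. SIRT3, a mitochondrial deacetylase, was the only member with a value above 0 and did not pass, at 11.7 ± 0.852 and 15.8 ± 2.6 CPM (log2 0.43, edgeR adjusted p = 0.0752), with groups that did not overlap. Without B35 replicate 1, 1 member rose. CYCS, cytochrome c, dropped from 189, 167 and 176 to 78.8, 102 and 94.9 CPM, which is 1.93-fold lower (log2 −0.95 ± 0.11 SE, edgeR adjusted p = 0.000589). IDH3A, a subunit of isocitrate dehydrogenase, was 1.41-fold lower, and ATP5F1B, the beta subunit of ATP synthase, 1.35-fold lower. SDHB, CS, NDUFS1 and IDH3G were 1.24-fold to 1.32-fold lower. Leaving out untreated replicate 1, 2 or 3 left 3, 4 or 2 that fell, and leaving out B35 replicate 3 left 3. The number was 11 with GC and length trends removed.

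Of 9 tested PPAR targets, 2 rose and 1 fell, beside 8.82% higher and 6.59% lower of all genes tested. Their median log2 fold change was 0.03. ANGPTL4, an inhibitor of lipoprotein lipase that overlaps RAB11B-AS1, rose 4.39-fold, and PDK4, which spares glucose during fat oxidation, 1.62-fold. HADHA, a mitochondrial fat oxidation enzyme, was 1.23-fold lower. The adjusted p of HADHA lay between 0.0672 and 0.151 without any 1 of the libraries other than B35 replicate 1. Without B35 replicate 1, 2 PPAR targets fell, and with GC and length trends removed, 3.

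Listed glucocorticoid receptor targets moved both ways, 4 higher and 2 lower of 10 tested, beside 8.82% higher and 6.59% lower of all genes tested. The clock gene PER1 rose 1.68-fold and the metallothionein MT2A 2.08-fold, while the kinase SGK1 was 1.53-fold lower. Their median log2 fold change was 0.05. The rises numbered 2 without untreated replicate 2 or 3, and 1 member fell without untreated replicate 3.

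**Figure D5:**
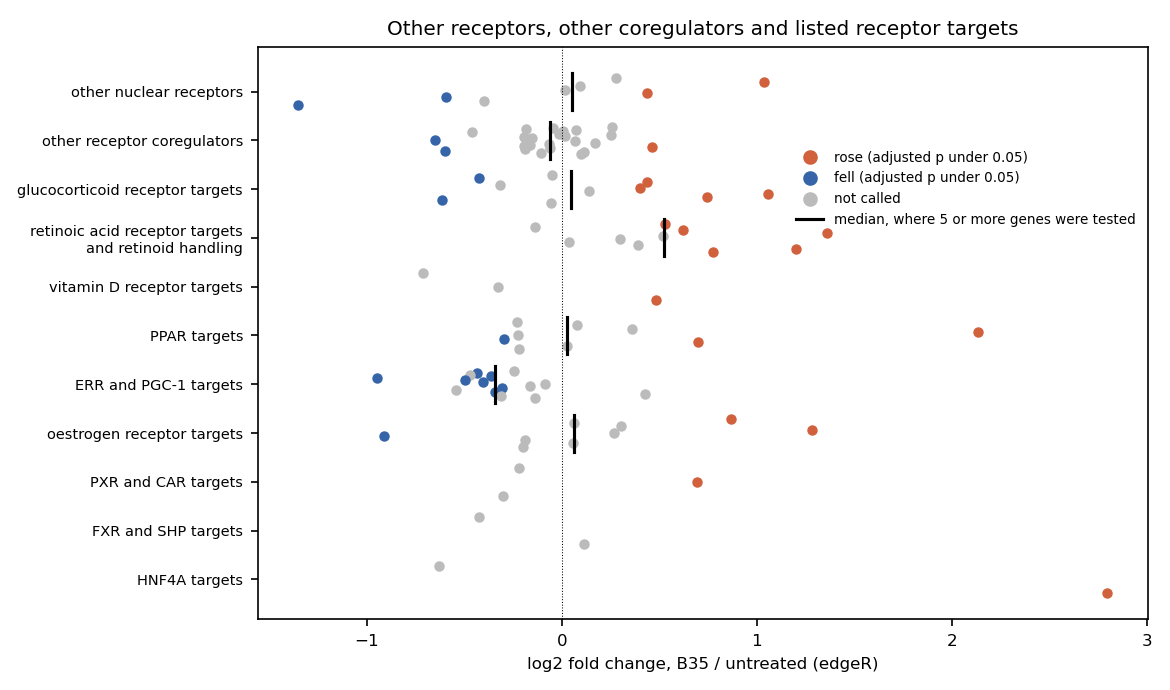
Log2 fold change of the tested genes of 11 lists, with genes that rose in orange, genes that fell in blue and the others in grey. A black bar gives the median where at least 5 genes were tested, 0.52 for retinoid genes and −0.34 for ERR and PGC-1 targets.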

How the data were processed

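RNA from 6 A549 libraries was sequenced after NEBNext Ultra library preparation, per the labels' protocols. The submitters' processing notes name hg38, HISAT2 2.0.5 and featureCounts 1.5.0-p3, and the annotation and strand setting are not given in the sources used here. The authors deposited whole-number counts and FPKM values per gene. FPKM served to compare levels between genes and to give sums and family shares in each library, and no test used it. All 58735 identifiers matched GENCODE 29, which gave symbols, coordinates and exon overlaps.

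Counts were tested with edgeR 4.0.16 in R 4.3.3 (filterByExpr, minimum count 10 and minimum total 15, TMM, quasi-likelihood F test, two-sided) with Benjamini-Hochberg adjustment over 14773 genes. CPM uses the TMM-scaled totals of the genes tested. The SE is the log2 fold change divided by the square root of F. The test was run on simulated counts without an outlying library, which cannot show how it handles B35 replicate 1. Replicates of a group differed by 4.71 to 35.2 in chi-square per degree of freedom, so each counted as 1 library.

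Values per library are given for members that passed, for those without overlap at 1.5-fold or more and for the most abundant of each class. From each of 11 pathway lists, up to 3 genes that passed were taken in order of adjusted p, or else the 2 most abundant. Other genes were named after their values were seen. The members and lists were chosen with earlier results of these data known. Alternatives, listed in the closing section, used limma 3.58.1 and DESeq2 1.42.0 among others. A listed gene is not reported here.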

Additional observations from a re-analysis of the deposited data

How the results depend on the processing

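The other settings tried were upper-quartile or relative log expression scaling, keeping every gene with 1 count, a mean CPM of 1 or more, robust dispersion, the replicate number as a term, DESeq2, limma-voom, removal of GC content and exon length trends, and each library left out in turn. None of the 2276 genes that passed changed sign in any of them. PPARA and NCOA3 passed in all 15. With 1 library left out, the genes changed numbered 881 to 3342, receptors that rose 1 to 4, coregulators that fell 0 to 1, other nuclear receptors that rose 1 to 2, other coregulators that rose 0 to 2, glucocorticoid targets that rose 2 to 4 and fell 1 to 2, and vitamin D targets that rose 0 to 1 and fell 0 to 1. In the same fits PPAR targets fell in 0 to 2, ERR and PGC-1 targets rose in 0 to 1 and fell in 2 to 8, oestrogen targets rose in 1 to 2 and fell in 0 to 1, and PXR and CAR targets rose in 0 to 1 and fell in 0 to 1. These fits use fewer libraries, and the 3342 genes came from the fit without B35 replicate 1.

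With GC and length trends removed, 3892 genes changed, 1 receptor fell (NR2F6), 2 coregulators rose and 1 fell (PPARGC1B), other coregulators rose in 2 and fell in 4, and 11 ERR and PGC-1 targets fell and 1 rose. In that fit 3 PPAR targets, 1 vitamin D target and 1 PXR and CAR target fell, and RXRA and PPARD turned to −0.032 and −0.028 (log2). With no filter, 1 coregulator and 1 vitamin D target fell. At a mean CPM of 1 or more, 0 HNF4A targets rose, since SERPINA1 was not tested. NCOA1, near 0 throughout, was at log2 −0.00071 with no filter, −0.0081 with the trends removed and −0.043 with limma-voom. The cause was not tested where a fit moved a count.

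Values that crossed 0 with 1 library left out, none of which passed, ranged in log2 from −0.306 to 0.0595 for ESRRA, −0.0469 to 0.205 for RXRA, −0.170 to 0.00661 for RARA, −0.103 to 0.0346 for RARG, −0.0398 to 0.0725 for PPARD, −0.0679 to 0.103 for PPARG, −0.0369 to 0.175 for HNF4G, −0.235 to 0.0153 for NR2C1, −0.242 to 0.0667 for NR2F6, −0.235 to 0.220 for NCOA1, −0.128 to 0.0405 for NCOR1 and −0.143 to 0.287 for SLC51B.

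The replicate numbers share only a number: deviations from the group means correlated at 0.163, 0.0162 and −0.0630 for numbers 1, 2 and 3, and not every library correlated best with its own number. With the replicate block 1594 genes rose and 1261 fell, 2 coregulators rose (NRIP1 passed), 1 ERR and PGC-1 target rose and 1 vitamin D target fell, and NCOA1 was at log2 −0.025. The block changed no other member's call.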

Other observations

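Of 12 listed HNF4A targets, 2 had enough counts to test. SERPINA1, the antitrypsin gene, was at 0.167, 0.221 and 0.119 CPM in untreated and 1.30, 1.22 and 1.16 CPM in B35 libraries. It had 2 to 4 counts per untreated library and entered the test only through the B35 libraries, so its call is no independent support. The other tested target did not pass, at log2 −0.63, though it lay lower in every B35 library than in any untreated one. The albumin gene ALB had 1 count in all. Of 9 tested oestrogen receptor targets, 2 rose and 1 fell, beside 8.82% higher and 6.59% lower of all genes tested. The carbonic anhydrase CA12 rose 1.82-fold, GREB1 rose 2.44-fold from 0.669, 0.720 and 0.773 CPM, and PDZK1, a scaffold of membrane transporters, was 1.88-fold lower. GREB1 lost its call without any 1 library other than B35 replicate 3 (edgeR adjusted p between 0.0538 and 0.113), and PDZK1 without untreated replicate 2 or 3 or B35 replicate 3 (edgeR, 0.0774, 0.0953 and 0.0672).

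Of 3 tested PXR and CAR targets, the drug-metabolizing enzyme CYP3A5 rose 1.61-fold. Its adjusted p (edgeR) was 0.0887, 0.0507 and 0.115 without untreated replicates 1, 2 and 3 and 0.0582 without B35 replicate 3. The other tested members, ALAS1 and POR, were at log2 −0.22 and −0.30 and did not pass. The groups of ALAS1 did not overlap. Of 3 tested vitamin D receptor targets, SERPINB1 rose 1.40-fold. It did not pass when untreated replicate 2 or 3 or B35 replicate 2 was left out, with edgeR adjusted p-values of 0.0596, 0.0794 and 0.0565. CYP27B1 and DHCR7 were at log2 −0.71 and −0.33 and did not pass. The groups of DHCR7 did not overlap. Over all genes tested, 8.82% passed as higher and 6.59% as lower. CYP24A1, the main vitamin D response gene, had 37 counts over the 6 libraries and was not tested. Neither of 2 tested FXR and SHP targets passed. SLC51B, a bile acid exporter subunit, was at 5.24, 7.25 and 5.23 CPM in untreated and 5.31, 8.49 and 5.43 CPM in B35 libraries. SLC51A, its partner subunit, was at log2 −0.42 (edgeR adjusted p = 0.502).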
